A study of Homo sapiens with 32 samples.

Results

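The RNA of 10 genes for cell surface and secreted proteins was followed in human B-lymphoblastoid lines: PTPRK, CHL1, APP, GPM6A, ELAPOR2, EFNA5, GPC4, MMP7, LIPH and F13A1. They were chosen by a large range of their array levels between lines in both nascent and total RNA, with earlier results of these data known. Each gene was read from the array's transcript cluster (the set of exon probes assigned to a gene) that carried its symbol alone, and each of the 10 had 1 such cluster, among 14405 clusters with 1 gene symbol and 21788 clusters in all. The choice used the levels by line, so levels and ranges between lines are given as a description with no test. The nascent/total ratio over all lines was not part of the choice and is tested.

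The cells were B-lymphoblastoid lines from a repository, which are B cells immortalised in culture. All of them, in both RNA fractions, had been exposed to 200 µM 4-thiouridine (4sU) for 2 h, and no culture without 4sU was analysed here. The nucleoside 4sU is built into RNA as it is made, so that RNA made during the exposure (nascent RNA) can be pulled out of the total RNA of the same culture. There were 16 nascent and 16 total RNA arrays from 13 cultures of 7 lines. Biological replicates (3 cultures each) were grown of GM07029, GM10835 and GM12813, whereas a single culture stood for each of GM07019, GM12812, GM12814 and GM12815. The GM12813 cultures had a second array per fraction, and such technical duplicates were averaged. Each line came to the study as a single immortalised line, so that a difference between lines cannot be assigned to the genome, the immortalised clone or the culture. In these bulk samples, fewer cells that make an RNA and less of that RNA per cell cannot be told apart.

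Most proteins of the cell surface and most secreted proteins enter the secretory pathway as they are made. There they are glycosylated and sorted, and they then face the outside of the cell as receptors, adhesion molecules, anchored proteoglycans or enzymes. Many of the genes described here are best known from other tissues: PTPRK and LIPH from epithelia, CHL1 and GPM6A from neurons, MMP7 from glandular epithelia and F13A1 from platelets and macrophages.

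The lines had the markers of B cells. All 10 B cell markers on the array (MS4A1, CD79A, CD79B, CD22, PAX5, EBF1, CD74, BLK, CR2 and FCER2) lay above background in every line in both fractions, with list means by line of 9.99 to 10.7 in nascent RNA and 10.1 to 10.7 in total RNA. Levels here are log2 intensities. Background was set at 6.40, below which lay 95% of the 216 clusters for olfactory receptors, which sense odours in the nose. Of 10 T and NK cell markers, 2 lay above background in every line and 7 in none in nascent RNA, and 1 in every line and 9 in none in total RNA. Of 10 monocyte, macrophage and platelet markers, 3 lay above it in every line and 6 in none in nascent RNA, and 1 and 8 in total RNA. For fibroblasts the counts were 5 in every line and 3 in none of 8 markers in nascent RNA, and 1 and 6 in total RNA. For epithelia they were 4 and 1 of 7 in nascent and 4 and 2 in total RNA, and for neurons and glia 2 and 5 of 7 in both fractions. The list means of 5 other cell types' markers by line stayed between 5.56 and 7.30 in nascent RNA and between 4.96 and 6.68 in total RNA. Some single markers in these lists were much brighter and above background in every line. The brightest, as means over lines in nascent and total RNA, were KRT8 (11.1 and 10.35), MBP (9.81 and 9.04), GP9 (8.5 and 7.88) and NKG7 (8.30 and 7.68). The monocyte marker VCAN was above background in GM07029 alone, at 8.55 in nascent and 8.33 in total RNA, and the epithelial marker CDH1 in GM07019 alone, at 6.73 and 6.92. The part of other cells in the levels below was not tested.

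The name on-off fits most of these genes but not all of them. Of 70 pairs of a gene and a line, 54 lay above background in nascent RNA and 48 in total RNA. In both fractions at once, 46 pairs lay above and 14 below, while 8 pairs were above in nascent RNA alone and 2 in total RNA alone. Of the 10 genes, 7 were above background in some lines and below in others in both fractions, against 397 of 14405 clusters with 1 symbol (2.76%), a share that the choice of genes fixed. With this background, common to both fractions, F13A1 was above it in all 7 lines in both. CHL1 was above it in all 7 lines in total RNA and in 5 in nascent RNA. LIPH was above it in all 7 in nascent and 6 in total RNA. At this cutoff these 3 genes were graded over the lines, not above background in some and below in others in both fractions. Nascent arrays were brighter than total arrays (array medians of 7.58 to 7.92 against 6.74 to 6.95), and with a background taken from each fraction's own arrays (6.84 in nascent and 5.97 in total RNA) the counts were 46 pairs in nascent and 51 in total RNA. LIPH in GM10835 was then below background in both fractions, at 6.79 in nascent and 5.69 in total RNA. The graded reading of LIPH thus depends on the cutoff. F13A1 in GM10835 was then below background in nascent RNA (6.59). CHL1 and F13A1 stayed above it in all 7 lines in total RNA.

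**Figure D1:**
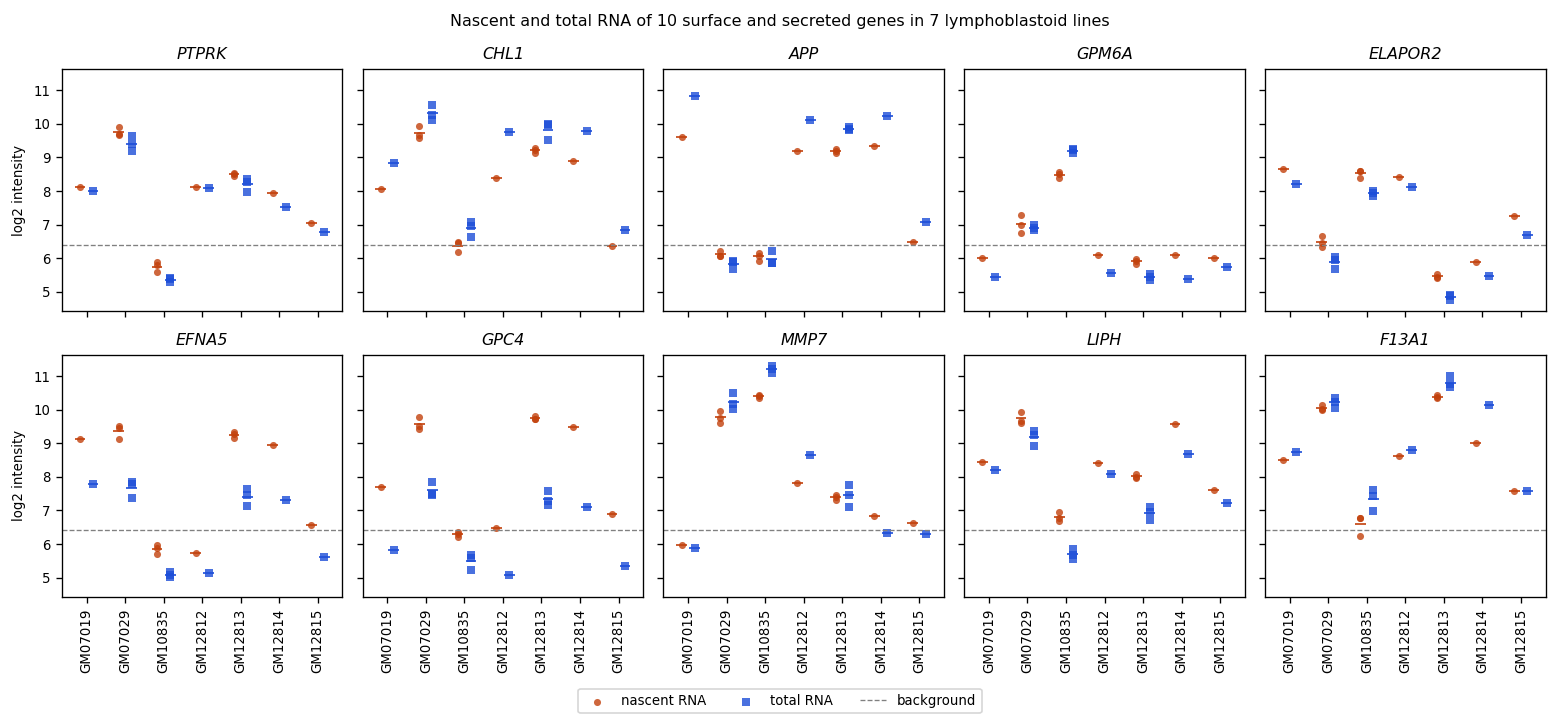
Log2 intensity (y axis) of the 10 genes in 7 lines (x axis), with nascent RNA as circles and total RNA as squares. Each point is 1 culture, short bars are line means and the dashed line is the background of 6.40. The points of replicate cultures lie close together beside the distance between lines, and the order of the lines differs from gene to gene.

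PTPRK (transcript cluster 2973376, chromosome 6) encodes a receptor-type protein tyrosine phosphatase that binds its own kind on neighbouring cells. Its nascent RNA was 8.11 in GM07019, 9.76 ± 0.14 in GM07029, 5.75 ± 0.16 in GM10835, 8.11 in GM12812, 8.50 ± 0.04 in GM12813, 7.94 in GM12814 and 7.05 in GM12815 (SD over 3 cultures where given). Its total RNA was 7.99 in GM07019, 9.41 ± 0.23 in GM07029, 5.35 ± 0.07 in GM10835, 8.09 in GM12812, 8.21 ± 0.20 in GM12813, 7.51 in GM12814 and 6.78 in GM12815. GM10835 alone was below background, in all 3 cultures and in both fractions, and GM07029 was highest. GM07019 and GM12812 could not be separated at 8.11 each in nascent RNA and at 7.99 and 8.09 in total RNA, 1 culture each.

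CHL1 (cluster 2607568, chromosome 3) is a cell adhesion molecule of the L1 family that is known for axon guidance. Nascent CHL1 RNA was 8.08 in GM07019, 9.73 ± 0.20 in GM07029, 6.37 ± 0.16 in GM10835, 8.38 in GM12812, 9.21 ± 0.06 in GM12813, 8.89 in GM12814 and 6.37 in GM12815. In total RNA it was 8.84 in GM07019, 10.32 ± 0.23 in GM07029, 6.89 ± 0.22 in GM10835, 9.76 in GM12812, 9.83 ± 0.27 in GM12813, 9.79 in GM12814 and 6.85 in GM12815. GM10835 and GM12815 were low in both fractions and within 0.22, the SD of the GM10835 cultures, of each other in total RNA. GM07029 was highest, and in total RNA the 3 GM07029 cultures (10.12 to 10.57) lay above the 3 of GM12813 (9.52 to 10.01).

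APP (cluster 3927226, chromosome 21) encodes the amyloid precursor protein, a membrane protein that is cut by secretases into fragments that include amyloid beta. For nascent APP RNA the levels were 9.61 in GM07019, 6.12 ± 0.10 in GM07029, 6.06 ± 0.12 in GM10835, 9.18 in GM12812, 9.18 ± 0.06 in GM12813, 9.33 in GM12814 and 6.48 in GM12815. The total RNA levels were 10.84 in GM07019, 5.83 ± 0.12 in GM07029, 5.98 ± 0.22 in GM10835, 10.10 in GM12812, 9.85 ± 0.04 in GM12813, 10.24 in GM12814 and 7.08 in GM12815. APP came closest to 2 states: GM07029 and GM10835 were below background in both fractions in all their cultures, GM07019, GM12812, GM12813 and GM12814 were between 9.18 and 9.61 in nascent and between 9.85 and 10.84 in total RNA, and GM12815 stood between. GM07029 and GM10835 differed by less than the SD of the GM10835 cultures in nascent and in total RNA. Against each fraction's own background, GM12815 was below in nascent RNA. The GM10835 mean was then just above background in total RNA (5.98 against 5.97).

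GPM6A (cluster 2794584, chromosome 4) is a multipass membrane glycoprotein of the proteolipid family, known from the outgrowth of neurites. Its levels in nascent RNA were 6.00 in GM07019, 7.02 ± 0.27 in GM07029, 8.49 ± 0.09 in GM10835, 6.10 in GM12812, 5.90 ± 0.07 in GM12813, 6.09 in GM12814 and 6.02 in GM12815. Total RNA of GPM6A was 5.45 in GM07019, 6.91 ± 0.06 in GM07029, 9.20 ± 0.06 in GM10835, 5.56 in GM12812, 5.45 ± 0.09 in GM12813, 5.39 in GM12814 and 5.74 in GM12815. GM10835 was high, GM07029 was weakly above background and the other lines were below it in both fractions. The mean of GPM6A over all arrays, 6.54, exceeded background largely through GM10835.

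ELAPOR2 (cluster 3059942, chromosome 7) is a transmembrane protein of the endosome-lysosome associated apoptosis and autophagy regulator family. In nascent RNA it stood at 8.65 in GM07019, 6.48 ± 0.17 in GM07029, 8.54 ± 0.12 in GM10835, 8.41 in GM12812, 5.46 ± 0.05 in GM12813, 5.88 in GM12814 and 7.25 in GM12815. In total RNA it stood at 8.20 in GM07019, 5.89 ± 0.18 in GM07029, 7.93 ± 0.08 in GM10835, 8.13 in GM12812, 4.85 ± 0.09 in GM12813, 5.48 in GM12814 and 6.69 in GM12815. GM07019, GM10835 and GM12812 were high, GM12815 was weakly above background, and GM12813 was lowest in both fractions. GM07019 and GM10835 differed in nascent RNA by less than the SD of the GM10835 cultures. GM07029 lay at background, above it in nascent RNA and below it in total RNA. Against each fraction's own background, GM07029 was below in both fractions.

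EFNA5 and GPC4 are held on the outer face of the membrane by a glycosylphosphatidylinositol anchor. EFNA5 (cluster 2869880, chromosome 5) is an ephrin, a ligand of Eph receptor tyrosine kinases on neighbouring cells. GPC4 (cluster 4022370, X chromosome) is a glypican, a heparan sulfate proteoglycan that binds growth factors. Both genes start in sequence that is rich in the dinucleotide CG, as the last 30 bases before the start show (RefSeq, GRCh38.p14, minus strand, chr5:107670938-107670967 and chrX:133415490-133415519, with CG in capitals), and PTPRK (chr6:128520600-128520629) is set beside them because its 300-base promoter window is as rich.
EFNA5: ctgcCGcCGcCGccCGagacacagcttggc
GPC4: gtttgCGgagCGtCGcCGCGcaCGcCGgcc
PTPRK: ccCGtccctcccCGagcaaagtaactcttg
The windows from 250 bases before to 50 after the start held 47 CG in EFNA5, 37 in GPC4 and 44 in PTPRK, against a median of 14 in 35116 promoter windows, 41.2% of which held 20 or more.

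Nascent EFNA5 RNA was 9.13 in GM07019, 9.36 ± 0.21 in GM07029, 5.85 ± 0.14 in GM10835, 5.74 in GM12812, 9.24 ± 0.09 in GM12813, 8.96 in GM12814 and 6.56 in GM12815. Its total RNA was 7.79 in GM07019, 7.67 ± 0.26 in GM07029, 5.09 ± 0.08 in GM10835, 5.13 in GM12812, 7.40 ± 0.26 in GM12813, 7.32 in GM12814 and 5.62 in GM12815. GM07019, GM07029, GM12813 and GM12814 were high in both fractions, GM10835 and GM12812 were below background in both, and GM12815 was just above background in nascent and below it in total RNA. Against each fraction's own background, GM12815 was below in both fractions. The 4 high lines lay between 8.96 and 9.36 in nascent RNA, against an SD of 0.21 between the GM07029 cultures.

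Nascent GPC4 RNA was 7.68 in GM07019, 9.57 ± 0.18 in GM07029, 6.30 ± 0.08 in GM10835, 6.47 in GM12812, 9.75 ± 0.05 in GM12813, 9.47 in GM12814 and 6.88 in GM12815. The total RNA of GPC4 was 5.81 in GM07019, 7.60 ± 0.21 in GM07029, 5.50 ± 0.23 in GM10835, 5.07 in GM12812, 7.34 ± 0.22 in GM12813, 7.11 in GM12814 and 5.34 in GM12815. GM07029, GM12813 and GM12814 were high in both fractions. GM07019, GM12812 and GM12815 were above background in nascent and below it in total RNA, most clearly GM07019 at 7.68 and 5.81, so GPC4 gave 3 of the 8 pairs that were above background in nascent RNA alone. With each fraction's own background this held for GM07019 and GM12815, while GM12812 was below in both fractions. GPC4 differed in GM07019 from EFNA5, which was high there in both fractions.

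MMP7 (cluster 3388673, chromosome 11) is matrilysin, a small secreted matrix metalloproteinase that cuts matrix and cell surface proteins. Among the single-start genes it had the promoter with the most named motifs, and the 30-base runs are shown for that reason (RefSeq, GRCh38.p14, minus strand, chr11:102530796-102530825 and chr11:102530759-102530788). Capitals mark TGANTCA, the letters of an AP-1 site, at positions -67 to -61 from the start, and TATAAA at -30 to -25.
MMP7, upper run: aaacactcaaaTGAGTCAcctatttccaca
MMP7, run nearer the start: ctgagaagctaTATAAAtttctgcagtcac
TGANTCA was present in 7.71% and TATAAA in 11.5% of the 35116 windows, searched on both strands, and TGANTCA reads as the same letters on either strand. The 2 motifs did not overlap. The MMP7 window held 4 CG.

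Nascent MMP7 RNA was 5.96 in GM07019, 9.77 ± 0.19 in GM07029, 10.39 ± 0.05 in GM10835, 7.82 in GM12812, 7.39 ± 0.07 in GM12813, 6.84 in GM12814 and 6.61 in GM12815. MMP7 total RNA was 5.89 in GM07019, 10.23 ± 0.25 in GM07029, 11.21 ± 0.11 in GM10835, 8.65 in GM12812, 7.45 ± 0.32 in GM12813, 6.33 in GM12814 and 6.30 in GM12815. GM10835 was highest and GM07029 next, the cultures of the 2 lines did not overlap in either fraction, and GM07019 was below background in both. GM12814 and GM12815 were close to background in each fraction, above it in nascent and below it in total RNA. With each fraction's own background this was reversed: both lines were below it in nascent and above it in total RNA.

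LIPH (cluster 2708855, chromosome 3) encodes a secreted phospholipase that makes lysophosphatidic acid, a signalling lipid. F13A1 (cluster 2940202, chromosome 6) encodes the A subunit of coagulation factor XIII, a transglutaminase that cross-links fibrin. Their single annotated starts are poor in CG, with 4 in the LIPH and 8 in the F13A1 window, and the last 30 bases before the start hold none (chr3:185552589-185552618 and chr6:6320663-6320692, minus strand, shown against the CG-rich runs of EFNA5, GPC4 and PTPRK).
LIPH: cagtcagtccctagggaacttcctgttgtc
F13A1: tatttaagagccaactgtcttgtctttccc

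Nascent LIPH RNA was 8.43 in GM07019, 9.74 ± 0.18 in GM07029, 6.79 ± 0.14 in GM10835, 8.42 in GM12812, 8.02 ± 0.06 in GM12813, 9.59 in GM12814 and 7.62 in GM12815. LIPH total RNA was 8.20 in GM07019, 9.18 ± 0.23 in GM07029, 5.69 ± 0.15 in GM10835, 8.08 in GM12812, 6.93 ± 0.19 in GM12813, 8.68 in GM12814 and 7.23 in GM12815. GM07029 and GM12814 were highest, in nascent RNA less than the SD of the GM07029 cultures apart, and GM10835 was lowest in both fractions and below background in total RNA. With each fraction's own background, GM10835 was below it in nascent RNA as well.

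Nascent F13A1 RNA was 8.50 in GM07019, 10.05 ± 0.07 in GM07029, 6.59 ± 0.30 in GM10835, 8.62 in GM12812, 10.39 ± 0.04 in GM12813, 9.00 in GM12814 and 7.58 in GM12815. F13A1 total RNA was 8.74 in GM07019, 10.21 ± 0.15 in GM07029, 7.33 ± 0.32 in GM10835, 8.79 in GM12812, 10.81 ± 0.17 in GM12813, 10.13 in GM12814 and 7.58 in GM12815. No line mean was below the background common to both fractions. With each fraction's own background, GM10835 was below it in nascent RNA. GM12813 was highest, its 3 cultures lay above the 3 of GM07029 in nascent RNA (from 10.35 up, against at most 10.12) and in total RNA (from 10.67 up, against at most 10.35), and GM10835 was lowest, with the widest spread between cultures of any member and line in nascent RNA (SD 0.30).

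Both kinds of start occurred among genes with a wide range. CHL1, APP, GPM6A and ELAPOR2 have several annotated starts, and their windows held 2 to 20 CG in CHL1, 17 and 43 in APP, 0 to 18 in GPM6A, and 2 and 45 in ELAPOR2. The arrays do not say which start was used. The motif TATAAA was also found in 1 window each of APP, GPM6A and LIPH, TGANTCA in 1 of APP and 2 of GPM6A, and CACGTG, the letters of an E-box, in 1 of GPM6A, against 7.26% of all windows.

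The distance between the lowest and the highest line mean, in log2 units, was 4.43 in nascent and 5.32 in total RNA for MMP7, 4.01 and 4.06 for PTPRK, 3.56 and 5.00 for APP, and 3.79 and 3.48 for F13A1. It was 3.36 and 3.47 for CHL1, 3.19 and 3.35 for ELAPOR2, 2.95 and 3.49 for LIPH, 3.61 and 2.70 for EFNA5, 2.58 and 3.81 for GPM6A, and 3.45 and 2.54 for GPC4. The range was thus wider in total than in nascent RNA for 7 genes and narrower for EFNA5, GPC4 and F13A1. A range of 2 log2 units or more in both fractions was found in 256 of 14405 clusters with 1 symbol (1.78%), and in all 10 genes by choice. Ranked by the smaller of both ranges among 14396 clusters, MMP7 was at place 3, PTPRK at place 9, and GPC4, the last of the 10, at place 102. Other genes lay among them: the mitochondrial gene ND5 (7.93 in nascent and 8.24 in total RNA), the cytokine IL1A (4.75 and 4.89) and GTSF1, a gene of the germ line (4.34 and 5.48), were the 3 non-members with the largest values. In GM12813 the ND5 signal was below background, at 4.51 in nascent and 4.29 in total RNA. How well the probes of a cluster match the sequence of each line was not tested. On either side of GPC4 were the growth factor HGF at place 101 (2.70 and 2.54) and the transporter SLCO4C1 at place 103 (2.52 and 2.55).

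**Figure D2:**
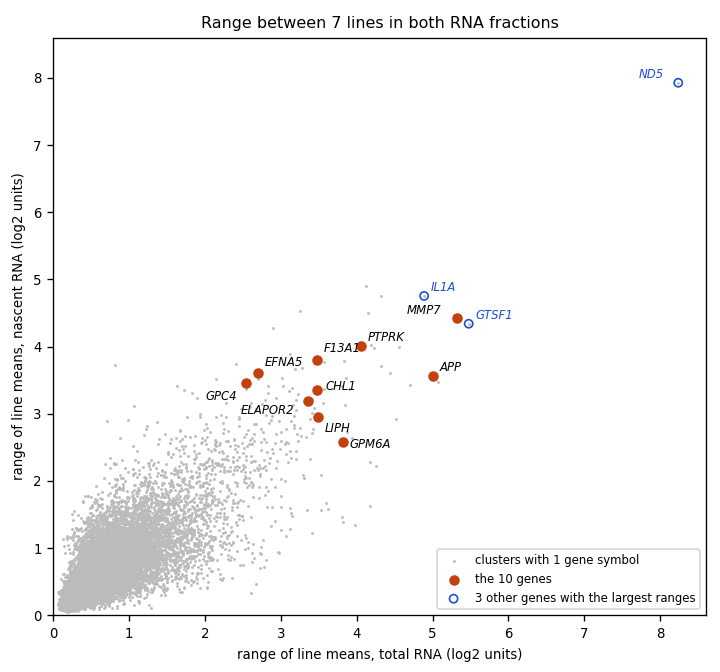
Range of the 7 line means in log2 units for each cluster with 1 gene symbol (grey), in total RNA (x axis) and nascent RNA (y axis), with the 10 genes as filled points and ND5, IL1A and GTSF1 as open circles. The 10 genes lie at 2.54 or more on both axes, where few clusters are found, and EFNA5 and GPC4 lie to the side of nascent RNA.

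The spread between cultures was small beside these ranges. Over 30 pairs of a gene and a replicated line, the SD of 3 cultures had a median of 0.11 in nascent RNA (0.04 to 0.30) and 0.19 in total RNA (0.04 to 0.32), against medians over all clusters above background of 0.09 and 0.14. Technical duplicates of the GM12813 cultures differed by a median of 0.11 in nascent and 0.13 in total RNA, with the largest differences in CHL1 (0.33, nascent RNA) and EFNA5 (0.63, total RNA). Line by line, nascent and total RNA of a gene went together, with Pearson's r over 7 lines from 0.953 for LIPH to 0.996 for ELAPOR2, which is a description, since both come from the same cultures and both were used to choose the genes.

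The lines did not share 1 pattern. GM07029 had the highest level of 4 genes in nascent RNA (PTPRK, CHL1, EFNA5 and LIPH) and of 4 in total RNA (GPC4 in place of EFNA5), while GM10835 had the lowest of 5 and 4 genes and at the same time the highest of MMP7 and GPM6A. GM12815 had the highest level of none of the 10 and the lowest of CHL1 alone, in both fractions. Its single nascent array had the lowest mean correlation with other lines (0.917) and the lowest median over clusters above background (8.49) among the nascent arrays. The B cell markers CD79A, CD79B, CD22, PAX5, EBF1 and CD74 had their lowest nascent line mean in GM12815. MS4A1 was lowest in GM10835, BLK in GM07029, and CR2 and FCER2 in GM12814. The part of the GM12815 nascent array in the intermediate levels of this line was not tested. Without GM12815 the other 6 lines gave 46 pairs above background in nascent and 42 in total RNA.

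Some of the genes ran in parallel over the lines and others in opposite order. Pearson's r over the 7 line means was 0.94 in nascent and 0.90 in total RNA between CHL1 and F13A1, 0.91 and 0.87 between PTPRK and CHL1, 0.90 and 0.79 between EFNA5 and GPC4, and 0.88 and 0.85 between GPM6A and MMP7. Low values were -0.87 and -0.85 between ELAPOR2 and GPC4 and -0.70 and -0.70 between APP and MMP7. These pairs share arrays and lines, and 7 points allow no firm order among them.

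The test of the nascent/total ratio called 7 genes lower and 2 higher. The ratio of a culture is its nascent minus its total log2 value, relative to the median of the 14167 clusters above background in that culture, and a negative ratio means less newly made RNA for the RNA present than in the median cluster. CHL1, APP, F13A1, MMP7, PTPRK, GPM6A and ELAPOR2 were lower, GPC4 and EFNA5 higher, and LIPH did not pass. GPM6A was below background in both fractions in 5 of the 7 lines, so that its call rests mostly on ratios of background signals. Over all clusters tested, 31.7% (4497) were called higher and 31.7% (4494) lower, and the median ratio was -0.50 over the 10 genes and -0.01 over all clusters. All tests of the ratio are limma's moderated test of 7 line means against 0, two-sided, with Benjamini-Hochberg adjustment over the 14167 clusters.

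The genes with the lowest ratios were CHL1, APP and F13A1. CHL1 had a ratio of -1.44 in GM07019, -1.36 in GM07029, -1.35 in GM10835, -2.19 in GM12812, -1.42 in GM12813, -1.78 in GM12814 and -1.12 in GM12815. Its mean was -1.52 ± 0.35 (SD, n = 7 lines, limma adjusted p = 1.36e-06), and all 7 lines were negative. The APP ratio was -1.90 in GM07019, -0.48 in GM07029, -0.75 in GM10835, -1.74 in GM12812, -1.47 in GM12813, -1.79 in GM12814 and -1.25 in GM12815. It averaged -1.34 ± 0.55 (SD, n = 7 lines, limma adjusted p = 2.79e-05), and the 2 lines nearest to 0, GM07029 and GM10835, were those where APP was below background in both fractions. For F13A1 the ratio was -0.92 in GM07019, -0.93 in GM07029, -1.57 in GM10835, -0.98 in GM12812, -1.22 in GM12813, -2.02 in GM12814 and -0.65 in GM12815. The mean was -1.18 ± 0.47 (SD, n = 7 lines, limma adjusted p = 2.62e-05), with GM12814 lowest.

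MMP7 averaged -0.95 ± 0.56 (SD, n = 7 lines, limma adjusted p = 0.000392). Its values were -0.60 in GM07019, -1.23 in GM07029, -1.64 in GM10835, -1.64 in GM12812, -0.86 in GM12813, -0.37 in GM12814 and -0.33 in GM12815. GM10835 and GM12812 were lowest, and in the 3 lines nearest to 0 MMP7 was below background in total RNA. PTPRK was the most even of the 10, at -0.55 in GM07019, -0.42 in GM07029, -0.43 in GM10835, -0.79 in GM12812, -0.51 in GM12813, -0.46 in GM12814 and -0.38 in GM12815, with a mean of -0.51 ± 0.14 (SD, n = 7 lines, limma adjusted p = 9.61e-05). The ratio of PTPRK in GM10835, where the gene was below background, was thus not set apart from the lines where it was not.

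ELAPOR2 averaged -0.27 ± 0.17 (SD, n = 7 lines, limma adjusted p = 0.00933) and was negative in 7 of 7 lines, from -0.53 in GM12812 to -0.09 in GM12815. In GM12813 (-0.19) and GM12814 (-0.48) the gene was below background in both fractions, and in GM07029 (-0.17) in total RNA. The count of negative lines thus includes ratios of background signals. Its mean over all arrays, 6.47, passed the background of 6.40 narrowly, through the lines where ELAPOR2 was high. The genes that are silent here also had ratios at or below 0: the median of the 216 olfactory receptor clusters lay between -0.27 and 0.00 by line, and where a gene is below background in both fractions its ratio compares background signals. In GM12812 the ELAPOR2 ratio of -0.53 stood beside an olfactory median of -0.15, and in GM10835 its ratio of -0.22 stood beside -0.17. The difference between ELAPOR2 and these clusters was not tested.

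GPM6A was above background in both fractions in GM10835 and GM07029, where its ratio was -1.54 and -0.66. In the other 5 lines it was below background in both fractions, and the ratio there, from -0.36 to -0.12, compares background signals. The mean over all lines was -0.50 ± 0.49 (SD, n = 7 lines, limma adjusted p = 0.0120), and GPM6A had passed the filter on low values largely through GM10835.

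GPC4 and EFNA5 had more nascent RNA for their total RNA than the median cluster. GPC4 had 1.20 in GM07019, 1.20 in GM07029, -0.03 in GM10835, 0.59 in GM12812, 1.61 in GM12813, 1.47 in GM12814 and 0.89 in GM12815. Its mean was 0.99 ± 0.56 (SD, n = 7 lines, limma adjusted p = 0.000361), and 6 of 7 lines were positive. Total GPC4 RNA was below background in GM07019, GM10835, GM12812 and GM12815, and in GM10835 nascent RNA was too. The GPC4 ratio in these lines is thus set against a background signal in total RNA. EFNA5 had 0.67 in GM07019, 0.92 in GM07029, -0.06 in GM10835, -0.20 in GM12812, 1.04 in GM12813, 0.75 in GM12814 and 0.29 in GM12815. It averaged 0.49 ± 0.48 (SD, n = 7 lines, limma adjusted p = 0.0136), with 5 of 7 lines positive and the 2 negative lines, GM10835 and GM12812, below background in both fractions. Of the positive lines, GM12815 was below background in total RNA. LIPH was positive in 3 lines and negative in 4, and its mean of -0.12 ± 0.32 did not pass (SD, n = 7 lines, limma adjusted p = 0.362).

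Before centring, the median cluster had a ratio of 0.77, so the sign of a ratio holds relative to that median. Without centring, CHL1, APP and F13A1 stayed lower and GPC4 and EFNA5 higher, while PTPRK (0.27), ELAPOR2 (0.50), LIPH (0.66) and GPM6A (0.28) took a positive sign. MMP7 (-0.18) was no longer called. With nascent and total RNA as unpaired groups, in which the range between lines enters the error, CHL1 alone passed.

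**Figure D3:**
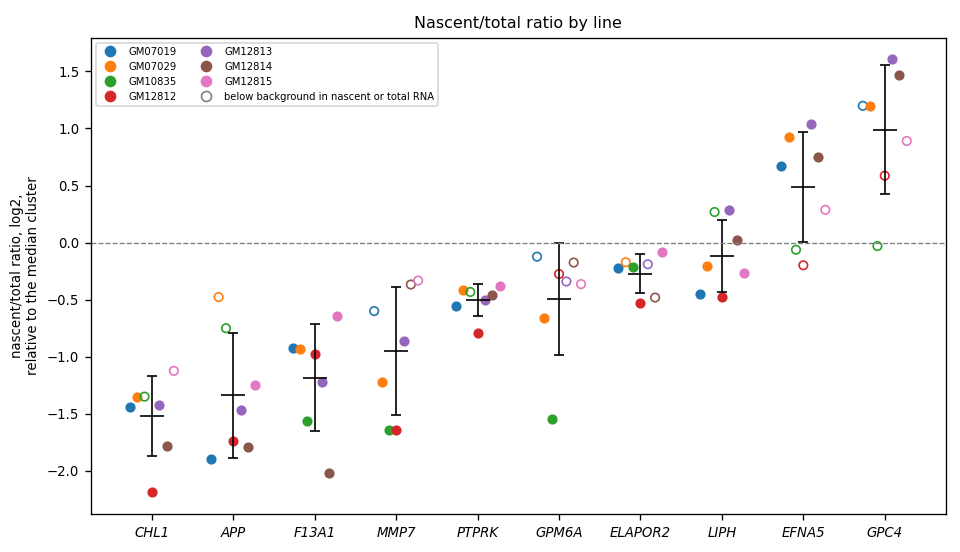
Nascent/total ratio in log2 units relative to the median cluster (y axis) of the 10 genes (x axis, ordered by mean), with 1 point per line, filled where the gene was above background in both fractions and open where it was not. Black bars are the mean and SD over 7 lines. CHL1, APP and F13A1 lie lowest, GPC4 and EFNA5 highest. For APP, EFNA5, MMP7 and GPM6A the open points lie nearer to 0 than the filled ones, and for CHL1 and GPC4 barely so. This does not hold for PTPRK, ELAPOR2 and LIPH.

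For each gene, the 2 genes with the most similar pattern were taken by the mean of Pearson's r in nascent and in total RNA over the 7 line means, out of 1904 genes that ranged over at least 1 log2 unit in both fractions. CHL1 was followed most closely by IPCEF1 (r = 0.996 in nascent and 0.98 in total RNA) and the ETS family transcription factor ETV5 (0.99 and 0.94), EFNA5 by the desmosomal cadherin DSC2 (0.98 and 0.98) and the beta-arrestin ARRB1 (0.95 and 0.98), and GPM6A by the chemokine receptor CCR9 (0.98 and 0.96) and the cochaperone DNAJA4 (0.97 and 0.96). APP was closest to LRMDA (0.95 and 0.99) and the SLAM family receptor LY9 (0.93 and 0.99), F13A1 to the sodium-calcium exchanger SLC8A3 (0.94 and 0.99) and the sterol hydroxylase CYP27A1 (0.95 and 0.92), and PTPRK to the autophagy kinase ULK2 (0.99 and 0.93) and the adaptor GAPT (0.94 and 0.91). GPC4 was closest to the exchange factor ARHGEF11 (0.95 and 0.97) and the decoy receptor TNFRSF11B (0.98 and 0.92), MMP7 to the mitochondrial carrier SLC25A24 (0.94 and 0.92) and the interleukin-2 receptor chain IL2RA (0.91 and 0.94), LIPH to GAPT (0.92 and 0.95) and the interferon-induced RSAD2 (0.92 and 0.92), and ELAPOR2 to DERL3 of the endoplasmic reticulum (0.87 and 0.94) and GTSF1 (0.85 and 0.93). GAPT was thus among the 2 closest genes of both PTPRK and LIPH. These are the highest values among 1904 candidates over 7 points that share arrays, and they carry no p.

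The nearest genes on the chromosome with a cluster of their own, by RefSeq gene order, were mostly either below or above background in every line. Among them CNTN6, NRN1 and WDR17 were above background in 1 to 6 lines in both fractions, as were 2.76% of all clusters with 1 symbol. C6orf58 and LAMA2 beside PTPRK, CYYR1 beside APP, ADAM29 beside GPM6A, GRM3 beside ELAPOR2, TFDP3 and GPC3 beside GPC4, MMP20 beside MMP7 and IGF2BP2 beside LIPH were below it in all 7 lines in both fractions. ATP5PF beside APP, DMTF1 beside ELAPOR2, FBXL17 beside EFNA5, TMEM123 beside MMP7 and TMEM41A beside LIPH were above it in all 7, with ranges under 1 log2 unit. Wide ranges were found for CNTN6 beside CHL1 (3.89 in nascent and 3.12 in total RNA), which was above background in GM12815 alone (8.40 and 6.93), a line in which CHL1 was low. NUDT12 beside EFNA5 ranged over 2.56 and 2.20, and NRN1 and LY86 on either side of F13A1 over 1.67 and 3.59 and over 1.59 and 3.12, all with r against EFNA5 or F13A1 between -0.19 and 0.19. WDR17 beside GPM6A had ranges of 1.73 and 2.01 and r of 0.56 and 0.64 against GPM6A, but it was highest in GM07029, at 6.84 and 7.17. ADAM29 on the other side of GPM6A ranged over 1.855 and 2.006, with r of 0.26 and 0.17. It was also highest in GM07029, at 5.65 and 5.28, but below background there.

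Relatives of the 10 genes were described from lists of their families. Their small counts of calls stand beside the share of all clusters tested, 31.7% called higher and 31.7% lower. Of 13 other receptor tyrosine phosphatases on the array, PTPRG had a range over 2 log2 units in both fractions (2.54 in nascent and 2.18 in total RNA, highest in GM12813), and PTPRC, the leukocyte antigen CD45, had the brightest total RNA of them (10.45), a brightness that also depends on the probes. Of these, 4 were tested for the ratio, 1 was higher (PTPRS, 0.26 ± 0.21, SD over n = 7 lines, limma adjusted p = 0.0204) and 1 lower (PTPRC, -1.37 ± 0.26, limma adjusted p = 9.13e-07). The APP relatives and secretase components had 5 tested of 8 on the array, 1 higher (PSEN2, 0.54 ± 0.17) and 3 lower (NCSTN, APH1A and APH1B, from -1.28 to -0.41), and none ranged over 2 log2 units in both fractions.

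Among ephrins and Eph receptors, 19 were on the array and 8 tested, with 2 higher (EFNA2, 0.45 ± 0.36, and EPHB1, 0.47 ± 0.25) and none lower, where 31.7% of all clusters were called in each direction. EPHB1, a receptor for B-type ephrins, ranged over 3.23 in nascent and 2.93 in total RNA, with GM12814 highest and GM12812 lowest. Of 8 glypicans and syndecans, 5 were tested and 2 were lower, GPC5 (-0.91 ± 0.28) and SDC3 (-0.22 ± 0.21), and the syndecan SDC4 ranged over 2.37 and 2.29. Of 25 other matrix metalloproteinases and their inhibitors, 14 were below background in every line in nascent and 21 in total RNA. Of the 25, 8 exceeded background in their mean over all arrays and were tested, against 65.0% of all clusters. Of these 8, 3 were lower, MMP14 (-0.36 ± 0.25), MMP25 (-0.24 ± 0.21) and the inhibitor TIMP1 (-1.16 ± 0.63), which like MMP7 was highest in GM10835, at 10.01 in nascent and 11.68 in total RNA.

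Of 7 lipases on the array, 3 were tested and 2 were lower, where 31.7% of all clusters were called lower. They were the lysosomal LIPA (-1.45 ± 0.29) and PLA1A (-1.41 ± 0.39), a phospholipase that like LIPH acts outside the cell. PLA1A ranged over 2.78 in nascent and 3.25 in total RNA, with GM07029 highest, as for LIPH, and GM12815 lowest. Of 8 genes in the list of other transglutaminases and the factor XIII B subunit F13B, 2 were tested and TGM2 was lower (-0.32 ± 0.21). The L1 family (L1CAM, NRCAM and NFASC), the proteolipid GPM6B and ELAPOR1 were not tested because their mean over all arrays did not exceed background, and none of them lay above background in any line in total RNA. In nascent RNA, L1CAM was just above background in all 7 lines (6.56 to 6.84), and GPM6B and ELAPOR1 were below it in all.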

How the data were processed

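Nascent (4sU-labelled) and total RNA of 13 cultures of 7 lymphoblastoid lines were hybridised to 32 human exon arrays. The deposited values are the authors' log2 gene-level intensities per transcript cluster. Per the submitters' processing notes Affymetrix Power Tools and genome build hg18 were used. How probes were summarised, in which version, and whether the fractions shared 1 normalization is not given in the sources used here. Ratios are therefore read relative to other clusters. The number of arrays limits the precision.

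Gene symbols came from the platform annotation: 14405 clusters had 1 symbol, 2365 several and 5018 none, and 14377 matched a current RefSeq symbol. Technical duplicates were averaged. Ratios (nascent minus total, within a culture) were centred on the culture's median over the 14167 clusters above background (65.0%) and averaged per line. They were then tested against 0 with limma 3.58.1 in R 4.3.3 (lmFit, eBayes with trend), with Benjamini-Hochberg adjustment and a threshold of 0.05. Nascent and total RNA are paired because they come from the same culture. Over the 9 replicate cultures, deviations from the line mean of nascent and total RNA correlated at -0.31 to 0.58. In simulated data of 14167 genes, shifts of 0.5, 1, 1.5 and 2 log2 units were called for 64%, 100%, 96% and 100% of the changed genes.

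Members and gene lists were chosen with earlier results of these data known. The text names the 10 genes, for each the 2 genes of most similar pattern, the 3 non-members with the largest ranges and, per family list, relatives with a range of at least 2 log2 units in both fractions, the relative with the brightest total RNA and relatives called in the ratio test. Neighbouring genes and the genes beside the last member by range were added after the values were seen. From the rankings, 9 clusters of Y-linked genes and of the X-inactivation RNAs were left out, a choice also made after the values were seen. Python 3.11.15 with pandas 2.3.3 and matplotlib 3.10.9 made the descriptions and plots. The alternatives tried were other backgrounds, quantile normalization, no centring, no filter, a signal trend, unpaired groups, cultures as blocks, no technical duplicates, and each line or culture left out.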

Additional observations from a re-analysis of the deposited data

Results flagged for a closer look

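The lines were set against each other by Dixon's criterion in 30 sets of 7 values, the nascent level, the total level and the ratio of each of the 10 genes, and 4 sets had a line far from the others. The levels by line were used to choose the genes, so for them this is a description, and the chance share of about 1 in 20 sets does not apply. GPM6A in GM10835 lay far above the other lines in nascent level (8.49) and total level (9.20), and its 3 cultures lay between 8.39 and 8.56 in nascent and between 9.13 and 9.25 in total RNA. Its nascent/total ratio of -1.54 in GM10835 was far below the others, 5 of which came from lines with GPM6A below background. The PTPRK ratio of -0.79 in GM12812, from a single culture, was the lowest of 7. Among the 10 sets of ratios, these 2 stood apart.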

How the results depend on the processing

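With nascent and total RNA as unpaired groups (no replicate block), the test of the ratio called 1 of the 10 genes, CHL1, with 0 higher and 1 lower, in place of 9 with 2 higher and 7 lower. Without centring it called 5 higher and 3 lower. PTPRK (0.27, limma adjusted p = 0.00710), ELAPOR2 (0.50, 4.95e-05), LIPH (0.66, 0.000242) and GPM6A (0.28, 0.0945) then changed sign, and MMP7 (-0.18, 0.307) was no longer called. Both fractions differ in overall brightness, so this setting moves every ratio up by about the uncentred median of 0.77. The other 12 settings, including cultures with the line as a random block, no filter, quantile normalization, a removed signal trend, no technical duplicates and each line left out, gave 9 calls each, with 2 higher and 7 lower. Over these 12, the adjusted p nearest to the threshold was 0.0455 for EFNA5, 0.0346 for ELAPOR2 and 0.0326 for GPM6A, and that of LIPH lay between 0.157 and 0.666. The number of pairs above background lay between 45 and 63 in nascent and between 42 and 51 in total RNA over all backgrounds and normalizations tried, between 46 and 55 and between 42 and 48 with a culture or GM12815 left out. The median SD between cultures was 0.12 in nascent and 0.21 in total RNA without the technical duplicates. The background for each fraction and the count without GM12815 were added after the data were seen. Each gene had 1 cluster, so using every cluster of a gene gave no other value. Levels near 6.40 limit what can be said: 4 lines had 1 culture, and their values have no replicate error.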
